A study of Mus musculus with 6 samples.

Results

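The genes of mitosis and the spindle were examined in distal colon of Gm31629-/- mice and their wild-type (WT) littermates after dextran sulfate sodium (DSS), an agent given in drinking water that injures the colonic epithelium. The set was a list of 52 gene symbols, from the cyclin-dependent kinase that starts mitosis to the proteins that complete cytokinesis, and all 52 were found among the 27546 genes of the deposited table. Each gene was placed in 1 of 10 roles. Gm31629 is a long noncoding RNA gene. The 3 Gm31629-/- mice lacked it through a deletion of the locus that was not restricted to a tissue, and the 3 WT mice were littermates on the same background (C57BL/6 in the labels, C57BL/6J in the methods). The level of Gm31629 itself was not analysed here. All 6 mice were 8 weeks old and received 3% DSS for 7 days, with colon taken on day 8. No group without DSS was analysed here, so each difference below is between genotypes under DSS.

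Mitosis is driven by CDK1 bound to cyclin A or cyclin B. The Aurora and Polo-like kinases build the spindle, the kinetochore ties chromosomes to its microtubules, and the spindle checkpoint holds back the anaphase-promoting complex until every chromosome is attached. In the colon, dividing cells lie in the lower part of the crypt, where they replace the epithelium that DSS removes. Many of these genes are transcribed late in the cell cycle through promoters that hold a cell cycle homology region (CHR) and CCAAT boxes. In bulk tissue, fewer dividing cells and less RNA per dividing cell cannot be told apart.

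Promoter sequences are shown first, since a CHR and a CCAAT box lie within the promoter window of most of these genes. In the RefSeq promoter table (GRCm38.p6, 250 bases before to 50 bases after each start), 44 of the 52 genes had a window, in 47 windows, since Bub3, Ect2 and Prc1 had a pair of overlapping windows each. A CHR, searched as TTTGAA or TTCGAA on both strands, was in 78.7% of the 47 windows and in 19.2% of all 32851 windows. A CCAAT box, searched on both strands, was in 74.5% of the windows of the set and 37.4% of all windows. Both motifs together were in 68.1% and 7.52%. These shares count matches on either side of the start. Of the 44 genes, 17 had a CHR before the start, and another 17 had one only across or after it, as in Aurka, Plk1 and Racgap1. By window the shares were 40.4% before the start, against 17.1% of all windows, and 38.3% only across or after it, against 2.08%. Both motifs lay before the start in 15 of the 44 genes (36.2% of the 47 windows and 6.02% of all windows). An E2F site, searched as TTTCCCGC or TTTGGCGC on both strands, was in 8.51% (4 of the 47 windows) and 1.56%. No test was made of these shares, and a match is a run of letters and not a bound site. The bases just before the RefSeq start are printed 5′ to 3′ on the strand of the gene for 5 genes that were lower in the Gm31629-/- mice and for Kif11 and Mki67, which did not pass the test. These 7 were taken from the genes with a CHR before the start. For Mki67 the stretch shown lies farther upstream, where its motifs are. Capitals mark CCAAT or its reverse complement ATTGG, and TTTGAA or its reverse complement TTCAAA.
Cdc20 (chr4:118437344-118437433, minus strand): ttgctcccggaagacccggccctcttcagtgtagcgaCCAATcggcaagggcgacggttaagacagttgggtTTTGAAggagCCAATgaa
Cdk1 (chr10:69352913-69353002, minus strand): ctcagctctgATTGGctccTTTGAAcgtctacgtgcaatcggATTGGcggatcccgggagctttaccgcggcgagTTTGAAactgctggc
Ube2c (chr2:164769839-164769928, plus strand): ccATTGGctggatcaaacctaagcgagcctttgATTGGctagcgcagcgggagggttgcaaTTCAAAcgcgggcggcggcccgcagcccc
Top2a (chr11:99024190-99024289, minus strand): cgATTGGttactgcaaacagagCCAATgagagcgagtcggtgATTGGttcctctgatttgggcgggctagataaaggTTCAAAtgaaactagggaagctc
Espl1 (chr15:102296234-102296292, plus strand): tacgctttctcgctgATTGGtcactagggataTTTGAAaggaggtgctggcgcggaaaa
Kif11 (chr19:37376323-37376381, plus strand): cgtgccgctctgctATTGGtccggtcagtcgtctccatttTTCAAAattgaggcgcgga
Mki67 (chr7:135716470-135716569, minus strand): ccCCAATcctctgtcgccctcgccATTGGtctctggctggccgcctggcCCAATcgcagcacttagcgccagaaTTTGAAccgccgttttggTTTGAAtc
In the stretches shown, the CHR begins 18 bases before the start in Cdc20, 29 in Ube2c, 23 in Top2a, 27 in Espl1 and 19 in Kif11. Top2a holds 4 CHR matches in its whole window, the others farther upstream than the stretch shown. Cdk1 holds a CHR at 71 and another at 15 bases, and Mki67 holds a pair farther out, at 116 and 98 bases. A CHR on either side of the start was in 16 of the 21 genes with a window that passed (76.2%) and in 12 of the 16 that were tested and did not pass (75%). The median log2 fold change was -0.82 for the 28 tested genes with a CHR and -0.97 for the 9 without. An E2F site was in 1 of the 21 that passed, in 0 of the 16 that did not, and in 3 of the 7 that were not tested.

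Expression was measured as FPKM, the fragments of a gene scaled by the length of its exons and by the mapped fragments of the library. The 6 libraries held 18005900 to 18795100 mapped fragments by the size of a single fragment in the table. Differences were fitted on log2(FPKM + 1) with limma for the 14657 genes with a mean of at least 0.5 FPKM, and 45 of the 52 mitotic genes were among them. A gene passed at a Benjamini-Hochberg adjusted p under 0.05 over all tested genes, and a fold change is given as the log2 difference, Gm31629-/- minus WT, with its SE. Adding 1 understates the change of genes near or below 1 FPKM, so the ratio of mean FPKM is given beside it for several genes. The Gm31629-/- library of mouse 1 held RNA of 4 Y-linked genes and almost no Xist, and the other 5 libraries held Xist and none of the 4 (the methods describe male mice). The methods also speak of pooled RNA, whereas the table has a column per mouse, so the p-values measure the spread between these 6 libraries.

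The mitotic genes were lower in the Gm31629-/- mice. The FPKM of the 52 genes summed to 105.8, 161.6 and 82.9 in Gm31629-/- mice 1, 2 and 3 and to 306.5, 196.4 and 293.0 in WT mice 1, 2 and 3. All 3 sums of the Gm31629-/- mice lay below all 3 of the WT mice, with means of 116.7 ± 40.5 and 265.3 ± 60.0 (SD, n = 3 each), a ratio of 2.27. Of the 45 tested genes, 28 passed as lower, against 14.6% of all tested genes, and 0 passed as higher, against 28.9%. At an unadjusted p under 0.05 the counts from limma were 33 lower and 0 higher. The share of all tested genes at that threshold is not given, so these counts have no background. With a fold threshold of 2 added (log2 fold change below -1), 20 passed, against 4.64% of all tested genes. This threshold acts on log2(FPKM + 1), so some genes more than 2-fold lower in mean FPKM did not reach it. The log2 fold change was negative for 41 of the 45, against 42.1% of all tested genes, and positive only for Pttg1, Spc25, Smc2 and Smc4. Its median was -0.92 over the 45 genes, with a range from -1.97 to 0.66, and 0.15 over all tested genes. The number that passed as lower was 18, 33 and 16 without Gm31629-/- mouse 1 (the library with Y-linked RNA), 2 or 3, and 15, 23 and 12 without WT mouse 1, 2 or 3. Over all tested genes the share lower moved too, to 13.5%, 13.5% and 11.4% without Gm31629-/- mouse 1, 2 or 3 and to 8.63%, 11.2% and 6.69% without WT mouse 1, 2 or 3. The 12 that passed in all 6 of these fits were Ccna2, Aurka, Nek2, Aurkb, Incenp, Cdca8, Bub1b, Spc24, Kif20a, Racgap1, Ncapd2 and Ncaph, and every other gene that passed lost its call at least without WT mouse 3.

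**Figure D1:**
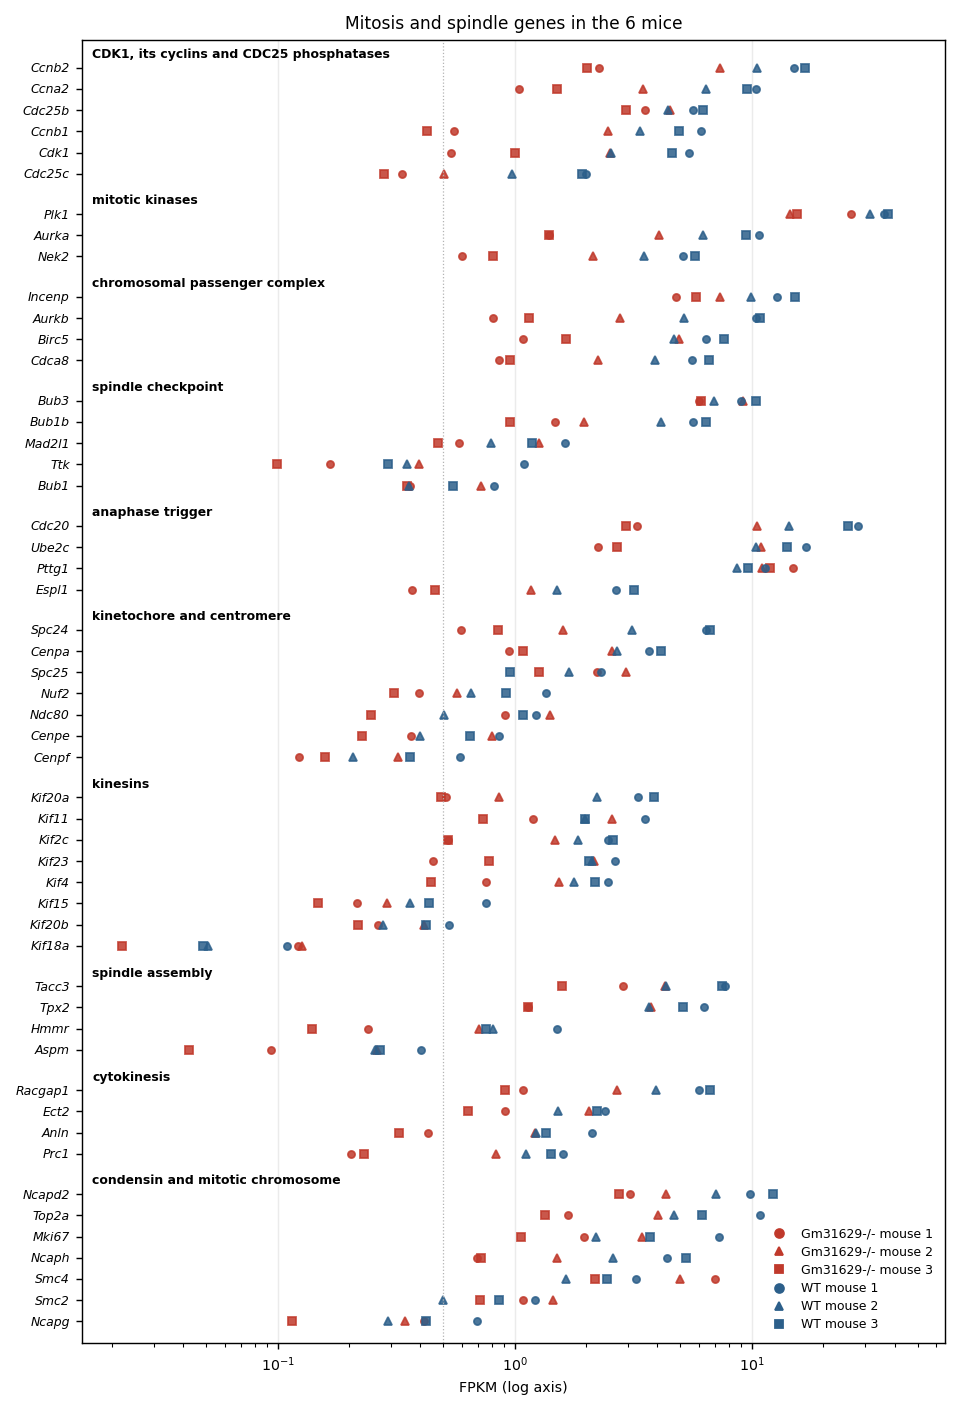
FPKM (log axis) of the 52 mitotic genes by role, with 1 point per mouse, red for Gm31629-/- and blue for WT, and the dotted line at the filter of 0.5 FPKM. In most rows Gm31629-/- mice 1 and 3 are leftmost, Gm31629-/- mouse 2 and WT mouse 2 (triangles) lie in the middle, and WT mice 1 and 3 are rightmost.

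The genes moved together from mouse to mouse as well as between the groups. The median deviation of the 45 genes from the WT mean, on the log2 scale, was -1.16, -0.37 and -1.13 in Gm31629-/- mice 1, 2 and 3 and 0.22, -0.34 and 0.13 in WT mice 1, 2 and 3. Gm31629-/- mouse 2 was thus close to WT mouse 2 in this measure. Gm31629-/- mouse 2 had the highest value of its group for 42 of the 45 genes, whereas it was highest for 44.0% of all tested genes. WT mouse 2 had the lowest value of its group for 42 of the 45, and for 32.6% of all tested genes. All 3 Gm31629-/- mice lay below all 3 WT mice for 28 of the 45 genes (21.5% of all tested genes), and for none did they all lie above (36.3%). The count was 39 (26.1% of all tested genes) without Gm31629-/- mouse 2 and 34 (26.4%) without WT mouse 2. The 28 without overlap were not all among the 28 that passed the test, since Birc5, Ube2c and Tpx2 passed with overlapping groups, and Nuf2, Hmmr and Anln did not overlap and did not pass.

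CDK1 and its cyclins fell. CDK1 is the kinase that drives entry into mitosis, cyclin A2 and cyclins B1 and B2 are its activating subunits, and the CDC25 phosphatases remove the phosphates that hold it inactive. Of the 6 genes, 5 passed as lower and 4 of them with the fold threshold, and the median log2 fold change was -1.36. Ccna2 (ENSMUSG00000027715, chr3:36564865-36572150, minus strand, GRCm38 here and below) was at 1.04, 3.48 and 1.51 FPKM in Gm31629-/- mice 1, 2 and 3 and at 10.4, 6.39 and 9.58 FPKM in WT mice 1, 2 and 3. The groups did not overlap, and WT held 4.38 times the mean of the Gm31629-/- mice (-1.76 ± 0.32, adjusted p = 0.00522, limma). Ccnb2, which stands with Ccnb1 for the B-type cyclins that CDK1 needs from prophase to anaphase, was at 2.27, 7.33 and 2.03 FPKM against 15.1, 10.5 and 16.8. Ccnb1 was at 0.554, 2.47 and 0.426 FPKM against 6.09, 3.38 and 4.91. Cdk1 itself was at 0.540, 2.51 and 1.00 FPKM against 5.43, 2.56 and 4.58. In all 3 genes the groups were separate, but for Cdk1 by only the gap between Gm31629-/- mouse 2 and WT mouse 2. The log2 fold changes were -1.77 ± 0.40 for Ccnb2 (adjusted p = 0.0115, limma), -1.53 ± 0.37 for Ccnb1 (adjusted p = 0.0147) and -1.19 ± 0.35 for Cdk1 (adjusted p = 0.0314). Ccna2 passed in all 6 fits that left out 1 library, Ccnb2 in 5, Ccnb1 in 4 and Cdk1 in 2. Of the phosphatases, Cdc25c passed and Cdc25b did not, and the difference between them was not tested. Cdc25c was low, at 0.373 ± 0.116 FPKM in the Gm31629-/- mice and 1.63 ± 0.573 in the WT mice (SD, n = 3 each) (-0.92 ± 0.21, adjusted p = 0.0114, limma). Cdc25b was at 3.53, 4.54 and 2.95 FPKM against 5.64, 4.41 and 6.19, with Gm31629-/- mouse 2 above WT mouse 2 (-0.46 ± 0.19, adjusted p = 0.0926, limma).

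All 3 mitotic kinases outside the CDK1 and checkpoint groups passed as lower, with a median log2 fold change of -1.45. Aurka encodes Aurora A, the kinase of the spindle poles. It was at 1.40, 4.07 and 1.40 FPKM in the Gm31629-/- mice and 10.7, 6.21 and 9.42 FPKM in the WT mice, without overlap (-1.64 ± 0.34, adjusted p = 0.00834, limma). Nek2, a kinase of centrosome separation, was at 0.602, 2.15 and 0.808 FPKM against 5.15, 3.49 and 5.77, again without overlap (-1.45 ± 0.30, adjusted p = 0.00785, limma). Plk1, the Polo-like kinase that acts from mitotic entry to cytokinesis, had the highest level of all 52 genes. It was at 26.1, 14.4 and 15.5 FPKM against 36.1, 31.5 and 37.5 (-0.92 ± 0.23, adjusted p = 0.0175, limma), and the groups did not overlap. Its order within the Gm31629-/- group differed from that of the other 2 kinases, with mouse 1 highest and mouse 2 lowest. The ratio of Plk1 to Aurka was 18.7, 3.54 and 11.1 in the Gm31629-/- mice and 3.37, 5.08 and 3.98 in the WT mice, so that it was high in Gm31629-/- mice 1 and 3 and in the WT range or near it in mouse 2.

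The chromosomal passenger complex, in which Aurora B is held at the inner centromere by INCENP, survivin and borealin, was lower in all 4 genes, with a median log2 fold change of -1.31. Aurkb (ENSMUSG00000020897, chr11:69045647-69051664, plus strand) was at 0.812, 2.78 and 1.15 FPKM in the Gm31629-/- mice and at 10.4, 5.17 and 10.9 FPKM in the WT mice. The lowest WT value was above the highest Gm31629-/- value, and the ratio of the means, 5.57, was the largest of the 45 genes (-1.94 ± 0.36, adjusted p = 0.0054, limma). Cdca8, which encodes borealin, was at 0.861, 2.24 and 0.957 FPKM against 5.61, 3.92 and 6.58 (-1.46 ± 0.27, adjusted p = 0.00571). Birc5, which encodes survivin, was at 1.09, 4.92 and 1.65 FPKM against 6.40, 4.72 and 7.66. Here Gm31629-/- mouse 2 was above WT mouse 2, and the gene passed narrowly (-1.16 ± 0.39, adjusted p = 0.0461, limma) and in 1 of the 6 fits that left out 1 library. Incenp, the scaffold, was at 4.80, 7.36 and 5.84 FPKM against 12.8, 9.94 and 15.1, without overlap (-0.96 ± 0.21, adjusted p = 0.0103, limma).

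The spindle checkpoint had 1 gene that fell. It is the set of proteins that, at unattached kinetochores, form the inhibitor of the anaphase-promoting complex. Of its 5 genes 4 were tested, and Bub1b alone passed. Bub1b, which encodes BUBR1, a component of that inhibitor, was at 1.47, 1.95 and 0.955 FPKM in the Gm31629-/- mice and at 5.63, 4.16 and 6.41 FPKM in the WT mice. The groups were well apart, at 3.70 times in the means (-1.38 ± 0.22, adjusted p = 0.00319, limma). Its partners were not distinguishable between the groups. Bub3 was at 6.00, 9.22 and 6.12 FPKM against 9.01, 6.94 and 10.4 (-0.28 ± 0.22, adjusted p = 0.328, limma). Mad2l1, which encodes MAD2, was at 0.583, 1.27 and 0.474 FPKM against 1.62, 0.794 and 1.19 (-0.32 ± 0.23, adjusted p = 0.291). Bub1, a checkpoint kinase, was at 0.362, 0.722 and 0.350 FPKM against 0.819, 0.357 and 0.550 (-0.09 ± 0.18, adjusted p = 0.708). In these 3 genes Gm31629-/- mouse 2 lay above WT mouse 2 and the groups overlapped. Ttk, the kinase known as MPS1, was below the filter, with 15, 36 and 9 fragments against 100, 31 and 27.

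Of the 4 genes placed in the anaphase trigger role, which includes the inhibitor securin, 3 fell. The median log2 fold change was -1.26 over the 4. CDC20 activates the anaphase-promoting complex, UBE2C is a ubiquitin-conjugating enzyme that serves it, securin (Pttg1) holds separase (Espl1) inactive, and separase cuts cohesin. Cdc20 (ENSMUSG00000006398, chr4:118432901-118437352, minus strand) had the most negative log2 fold change of the 45 genes. It was at 3.29, 10.5 and 2.94 FPKM in the Gm31629-/- mice and at 27.9, 14.3 and 25.5 FPKM in the WT mice, without overlap (-1.97 ± 0.44, adjusted p = 0.0115, limma). Ube2c was at 2.24, 10.9 and 2.70 FPKM against 16.9, 10.4 and 14.0, and Gm31629-/- mouse 2 reached the WT range (-1.47 ± 0.49, adjusted p = 0.044, limma, in 1 of the 6 fits that left out 1 library). Espl1 was at 0.369, 1.17 and 0.460 FPKM against 2.68, 1.51 and 3.17, without overlap (-1.05 ± 0.27, adjusted p = 0.0174, limma). Pttg1 was the gene of this role that did not fall. Securin RNA was at 14.9, 11.1 and 11.9 FPKM in the Gm31629-/- mice and 11.4, 8.64 and 9.60 FPKM in the WT mice, with overlap (0.32 ± 0.17, adjusted p = 0.165, limma).

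At the kinetochore, Spc24 and Cenpa passed as lower of 6 genes tested, and the median log2 fold change was -0.31. Spc24, Spc25, Ndc80 and Nuf2 encode the 4 subunits of the NDC80 complex, which binds the ends of microtubules. Spc24 (ENSMUSG00000074476, chr9:21755442-21760303, minus strand) was at 0.591, 1.60 and 0.846 FPKM in the Gm31629-/- mice and at 6.41, 3.13 and 6.68 FPKM in the WT mice. It did not overlap and was 5.34 times higher in the WT mean (-1.65 ± 0.30, adjusted p = 0.00527, limma). Spc25 was at 2.23, 2.96 and 1.26 FPKM against 2.31, 1.69 and 0.951 (0.25 ± 0.28, adjusted p = 0.499, limma). Ndc80 was at 0.914, 1.40 and 0.247 FPKM against 1.23, 0.505 and 1.09 (-0.10 ± 0.28, adjusted p = 0.802). Nuf2 was at 0.394, 0.573 and 0.309 FPKM against 1.36, 0.657 and 0.915 (-0.46 ± 0.18, adjusted p = 0.0784). So within the complex Nuf2 was separate between the groups and did not pass in this fit, whereas Spc25 and Ndc80 overlapped. Nuf2 is near 1 FPKM, and it passed as lower in a fit on recovered fragments (-1.18, adjusted p = 0.046, limma with voom). Cenpa, the histone H3 variant that marks the centromere, passed (-0.87 ± 0.27, adjusted p = 0.0359, limma) and Cenpe, a kinetochore motor, did not (-0.17 ± 0.20, adjusted p = 0.526). Cenpf, a large protein of the outer kinetochore, was below the filter, with 35, 92 and 45 fragments against 167, 58 and 105.

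Of the kinesins, the microtubule motors of the spindle, 5 of 8 were tested and 3 passed as lower. Kif20a, a kinesin of the central spindle, was at 0.515, 0.856 and 0.488 FPKM in the Gm31629-/- mice and at 3.30, 2.22 and 3.85 FPKM in the WT mice. All WT values were well above all Gm31629-/- values (-1.34 ± 0.21, adjusted p = 0.00273, limma), with the lowest adjusted p of the 45 genes. Kif2c, which depolymerizes microtubules at centromeres (-0.87 ± 0.24, adjusted p = 0.0222, limma), and Kif4, a chromosome-bound kinesin (-0.75 ± 0.24, adjusted p = 0.0373), passed below the fold threshold. Their WT means in FPKM were 2.74 and 2.35 times those of the Gm31629-/- mice. Kif11, the motor that pushes the spindle poles apart, was at 1.20, 2.58 and 0.734 FPKM against 3.56, 1.97 and 1.99, with overlap (-0.52 ± 0.31, adjusted p = 0.205, limma). Kif23, a subunit of centralspindlin, also overlapped (-0.70 ± 0.29, adjusted p = 0.0916). The other 3 kinesins were below the filter. Kif15 had 44, 59 and 30 fragments against 154, 72 and 90, without overlap. Kif18a had 22, 23 and 4 against 20, 9 and 9, and Kif20b had 34, 53 and 28 against 68, 35 and 55, both with overlap.

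Among the spindle assembly genes Tpx2 and Tacc3 passed of 3 tested. Tpx2, the activator of Aurora A on microtubules, was at 1.14, 3.75 and 1.14 FPKM in the Gm31629-/- mice and 6.28, 3.68 and 5.13 FPKM in the WT mice. Gm31629-/- mouse 2 was level with WT mouse 2, and the gene passed in 1 of the 6 fits that left out 1 library (-1.09 ± 0.35, adjusted p = 0.0394, limma). Tacc3, a spindle protein that Aurora A phosphorylates, passed below the fold threshold (-0.97 ± 0.31, adjusted p = 0.0413, limma). Its WT mean FPKM was 2.23 times that of the Gm31629-/- mice. Hmmr, a microtubule-associated protein also known as a hyaluronan receptor, was at 0.240, 0.708 and 0.140 FPKM against 1.50, 0.808 and 0.754, without overlap (-0.57 ± 0.22, adjusted p = 0.0758, limma). Aspm, a spindle pole protein, was below the filter, with 20, 56 and 9 fragments against 86, 54 and 59.

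In cytokinesis, Racgap1 and Prc1 passed of 4 genes. Racgap1 encodes the partner of KIF23 in centralspindlin. It was at 1.08, 2.69 and 0.907 FPKM in the Gm31629-/- mice and at 5.99, 3.94 and 6.67 FPKM in the WT mice, without overlap (-1.39 ± 0.30, adjusted p = 0.00964, limma). Prc1, which bundles the microtubules of the midzone, was low and without overlap (-0.77 ± 0.21, adjusted p = 0.0234, limma). Its WT mean FPKM was 3.27 times that of the Gm31629-/- mice. Anln, an actin-binding protein of the cleavage furrow, was at 0.432, 1.21 and 0.324 FPKM against 2.12, 1.23 and 1.36 (-0.65 ± 0.25, adjusted p = 0.0676, limma). Ect2, the exchange factor that activates RhoA at the furrow, was at 0.908, 2.05 and 0.637 FPKM against 2.41, 1.53 and 2.21, with overlap (-0.51 ± 0.26, adjusted p = 0.153, limma).

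Of 6 tested genes of the mitotic chromosome 3 fell. Condensin I joins the SMC2 and SMC4 ATPases to the subunits encoded by Ncapd2, Ncapg and Ncaph. Ncaph was at 0.694, 1.51 and 0.720 FPKM in the Gm31629-/- mice and 4.38, 2.60 and 5.30 FPKM in the WT mice (-1.35 ± 0.27, adjusted p = 0.00683, limma). Ncapd2 was at 3.07, 4.36 and 2.75 FPKM against 9.79, 7.03 and 12.3 (-1.27 ± 0.24, adjusted p = 0.00559). Neither overlapped, and both passed in all 6 fits that left out 1 library. Smc4 (ENSMUSG00000034349, chr3:69004738-69034623, plus strand) had the most positive log2 fold change of the 45. It was at 6.98, 4.97 and 2.18 FPKM against 3.25, 1.65 and 2.44, highest in Gm31629-/- mice 1 and 2, with mouse 3 in the WT range (0.66 ± 0.35, adjusted p = 0.171, limma). Without Gm31629-/- mouse 3 it passed as higher (1.03, adjusted p = 0.0284, limma). Smc2 was at 1.08, 1.44 and 0.715 FPKM against 1.21, 0.497 and 0.855 and overlapped (0.17 ± 0.21, adjusted p = 0.547). Ncapg was below the filter, with 54, 45 and 15 fragments against 91, 37 and 56. Top2a, the topoisomerase that disentangles sister chromatids, was at 1.68, 4.03 and 1.34 FPKM against 10.8, 4.71 and 6.18, without overlap (-1.31 ± 0.37, adjusted p = 0.0256, limma). Mki67, which encodes the proliferation antigen Ki-67 that coats mitotic chromosomes, was at 1.97, 3.45 and 1.07 FPKM against 7.24, 2.20 and 3.72. Gm31629-/- mouse 2 exceeded WT mouse 2, and the gene did not pass (-0.73 ± 0.40, adjusted p = 0.18, limma).

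**Figure D2:**
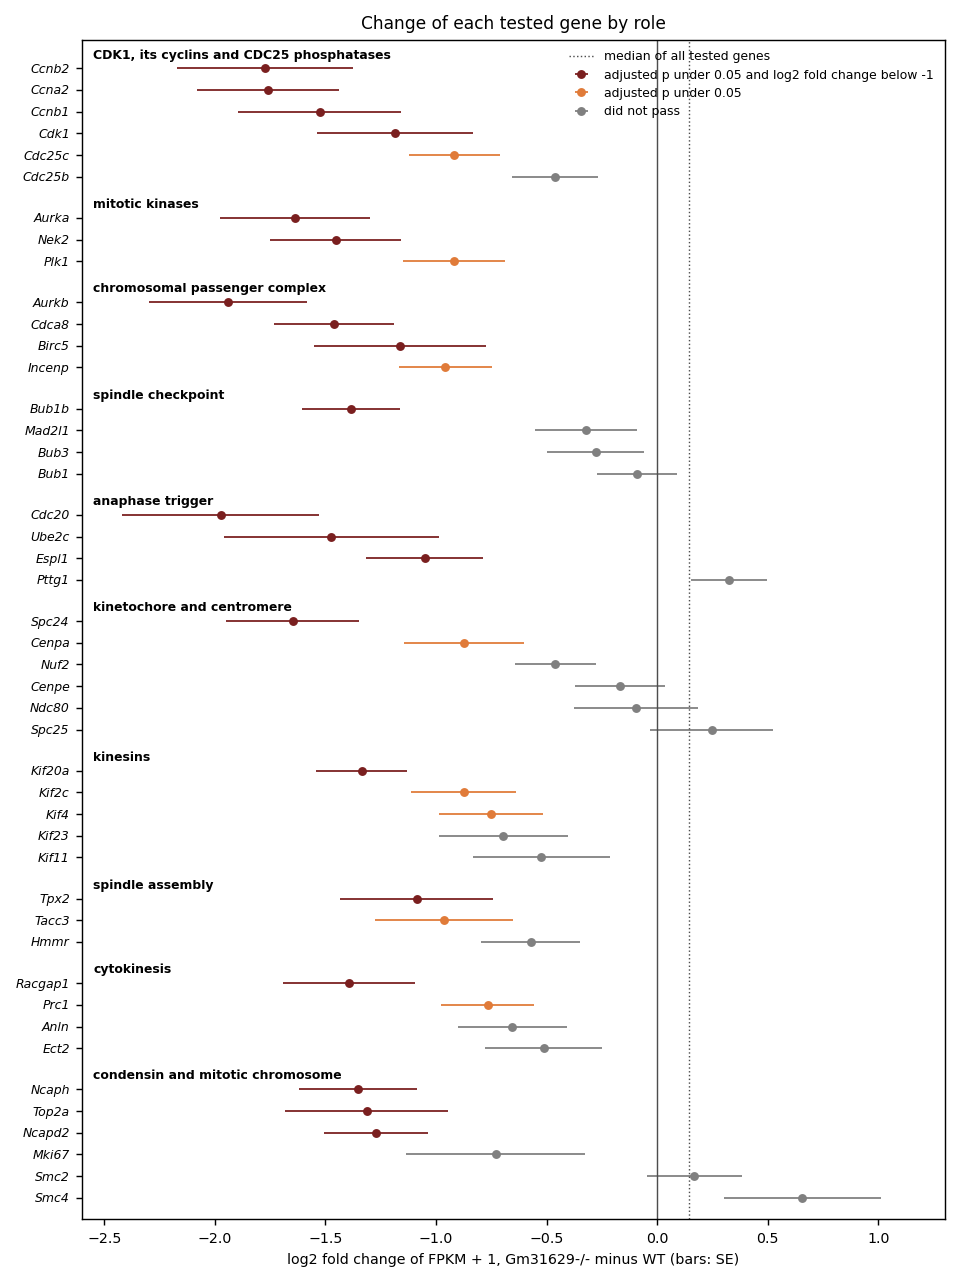
Log2 fold change (Gm31629-/- minus WT, on log2(FPKM + 1)) of the 45 tested genes by role, with SE bars. Dark red points passed with the fold threshold, orange points passed at an adjusted p under 0.05 only, grey points did not pass, and the dotted line is the median of all tested genes (0.15). Of the points, the 4 genes to the right of 0 are Pttg1, Spc25, Smc2 and Smc4.

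Ratios between genes of the same complex or step describe this division within each mouse. The 12 pairs of genes were chosen after their values were seen, so they are given with no test. Spc24 per Spc25, each in FPKM, was 0.265, 0.541 and 0.670 in the Gm31629-/- mice and 2.78, 1.85 and 7.02 in the WT mice. The groups did not overlap, and the mean log2 ratio differed by -2.85 (Gm31629-/- minus WT). Ncaph per Smc4 was 0.0994, 0.304 and 0.330 against 1.35, 1.58 and 2.17, also without overlap. Most pairs set a gene that passed as lower against 1 that did not pass, so separation of the groups was largely built into the choice. The groups overlapped for Smc4 per Smc2 and for Plk1 per Aurka.

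**Figure D3:**
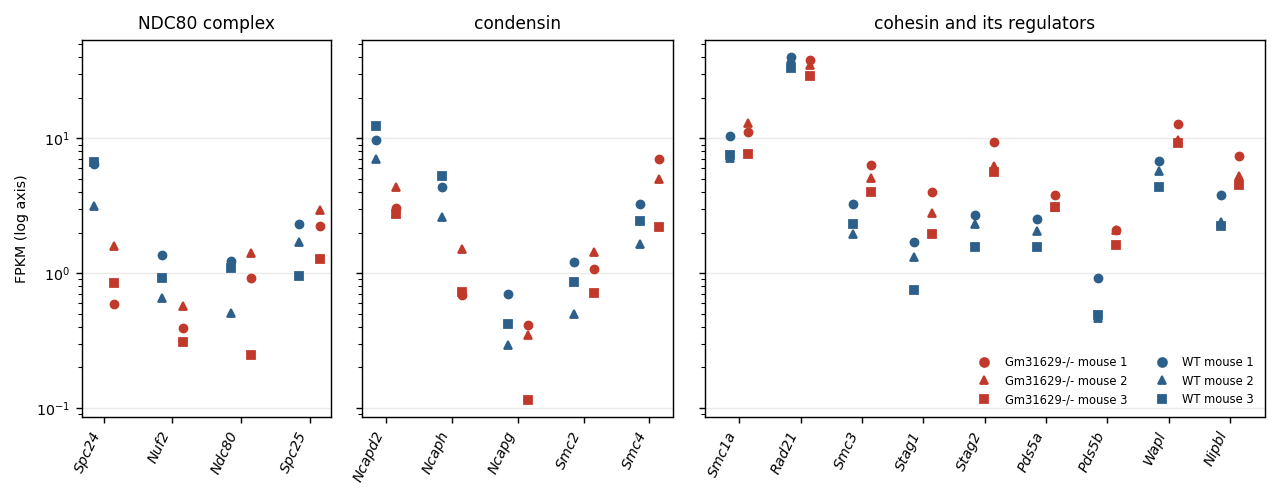
FPKM (log axis) of the subunit genes of the NDC80 complex, condensin and cohesin with its regulators, with 1 point per mouse, red for Gm31629-/- and blue for WT. The Spc24, Ncapd2 and Ncaph points of the Gm31629-/- mice all lie below those of the WT mice, the Spc25, Smc2 and Smc4 points overlap, and the Stag2 points lie above.

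The GC content of the longest transcript moved with these differences. Over the 45 genes the log2 fold change had a Pearson r of -0.61 and a Spearman rho of -0.63 with GC content, given as a description, since genes share their libraries. Over 14647 tested genes with a GC value the figures were -0.07 and -0.15. Of the 23 genes with a GC content of 47.6% to 56.1%, 21 passed as lower, with a median log2 fold change of -1.27, where 18% of all tested genes in that range passed as lower. Of the 22 genes at 39.7% to 47.4%, 7 passed, with a median of -0.55, where 9.13% did. All 4 genes with a positive fold change were in this latter range, Smc2 at 39.7%, Smc4 at 40.2%, Spc25 at 42.6% and Pttg1 at 46.0%. The median log2 fold change of all tested genes was also higher at low GC content, at 0.72 from 38% to 40% GC, 0.55 from 40% to 42% and -0.06 from 54% to 56%. In a fit chosen after seeing the data, a trend over GC content and exon length was removed from each library. Then 38 of the 45 passed as lower, against 30.1% of all tested genes, with a median of -1.16 (all tested genes -0.17), and the 28 were among the 38. Among those added were Bub1 (-0.62, adjusted p = 0.0253, limma), Mad2l1 (-0.89, adjusted p = 0.0183), Nuf2 (-0.95, adjusted p = 0.00503), Kif11 (-0.98, adjusted p = 0.0235) and Cdc25b (-0.66, adjusted p = 0.0138). Spc25 became -0.20, Smc2 -0.43, Pttg1 0.02 and Smc4 0.08, and none of these 4 passed. On the log2(FPKM + 1) scale, the difference of Spc24 less Spc25 was -1.89 before and -1.65 after removal of the trend, and that of Ncaph less Smc4 was -2.01 before and -1.63 after. The association with GC content over the 45 genes remained, with a Pearson r of -0.49. How much of the division among the genes GC content accounts for was not tested further.

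**Figure D4:**
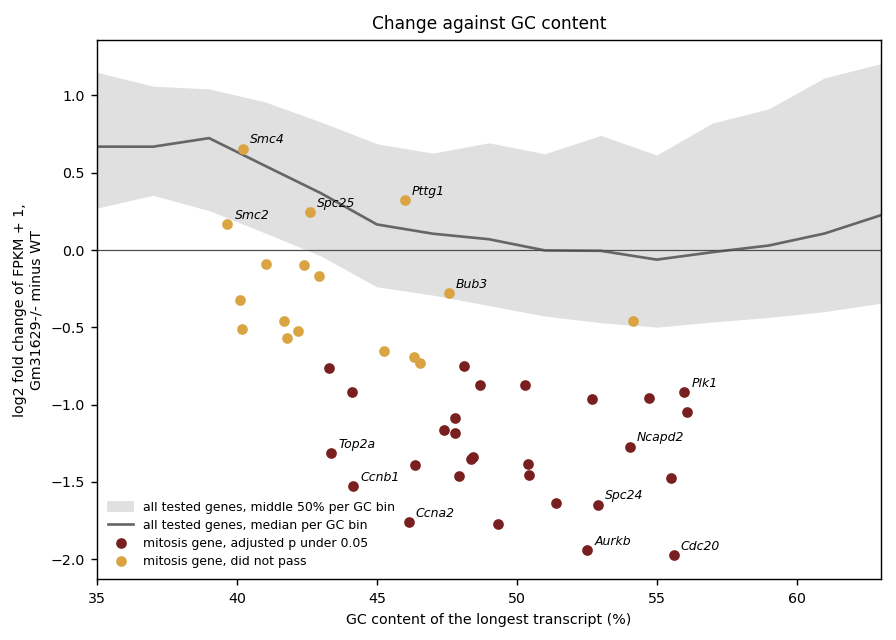
Log2 fold change of the 45 mitotic genes (points, dark red where they passed as lower) against the GC content of the longest transcript in percent, over the median (line) and middle 50% (grey band) of all tested genes in each GC bin. The genes that did not pass cluster below 48% GC, where the line of all tested genes is also higher.

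Genes of the same process outside the 52 were read from 3 further lists. Of 65 other mitosis genes, 54 were tested, 29 passed as lower and 2 as higher, against 14.6% and 28.9% of all tested genes, with a median log2 fold change of -0.60. The lowest were Pbk, a mitotic kinase, at 0.759, 2.51 and 0.699 FPKM against 10.4, 5.24 and 8.67 (-2.01, adjusted p = 0.00427, limma), Cdca3, a substrate adaptor for mitotic entry (-1.85, adjusted p = 0.00412), and Melk, a kinase of dividing cells (-1.70, adjusted p = 0.00847). The higher ones were Zwint, a kinetochore protein, at 18.5, 20.3 and 9.69 FPKM against 6.12, 6.26 and 7.10 without overlap (1.14, adjusted p = 0.0137, limma), and Ska2 (0.46, adjusted p = 0.04), of the SKA complex that joins kinetochores to microtubules. The list for the anaphase-promoting complex held core subunits and Fzr1, which encodes the coactivator CDH1. Of its 15 genes 14 were tested, with a median of 0.03, and its counts were near or below the shares of all tested genes in both directions. The 2 that passed as lower were Anapc1 (-0.63, adjusted p = 0.0161, limma) and Fzr1 (-0.49, adjusted p = 0.0274). The 3 that passed as higher were Cdc27 (0.98, adjusted p = 0.0133), Anapc4 (0.70, adjusted p = 0.0226) and Anapc10 (0.56, adjusted p = 0.0363). After removal of the GC and length trend 4 of the list were lower, against 30.1% of all tested genes, and Cdc27 (0.39, adjusted p = 0.0774, limma), Anapc4 (0.36, adjusted p = 0.0591) and Anapc10 (-0.06, adjusted p = 0.759) no longer passed as higher. Cohesin, the ring that holds sister chromatids and also folds chromatin outside mitosis, had higher values in the Gm31629-/- mice. Of its 9 genes 6 passed as higher, against 28.9% of all tested genes, and 0 as lower, with a median of 0.81. At an unadjusted limma p under 0.05 the counts were 7 and 0, again with no share of all tested genes given. Stag2 was at 9.48, 6.19 and 5.62 FPKM against 2.68, 2.32 and 1.56, without overlap (1.33, adjusted p = 0.0046, limma), followed by Pds5b (0.86, adjusted p = 0.00857) and Nipbl (0.82, adjusted p = 0.0273). Rad21, the cohesin subunit that separase cuts, did not pass (-0.14, adjusted p = 0.512). After removal of the GC and length trend, 1 cohesin gene was higher, Stag2 (0.65), against 20.1% of all tested genes, and 1 lower, Rad21 (-0.49, adjusted p = 0.0151).

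The cell types in the libraries differed between the groups in the same comparison. The counts of markers below stand beside 14.6% of all tested genes that passed as lower and 28.9% that passed as higher. The 15 epithelial markers, which were present in all 6 libraries, summed to 8094, 8691 and 9589 FPKM in the Gm31629-/- mice and 13763, 14171 and 12973 FPKM in the WT mice, and 7 passed as lower and 0 as higher. Their most abundant gene was Krt8, a keratin, at a mean of 2042 against 4198 FPKM. Markers of crypt base stem cells summed to 120.2, 130.0 and 99.1 FPKM against 205.0, 234.7 and 214.0, with 5 of 9 tested lower and 0 higher. Markers of the other layers were higher. The 12 smooth muscle markers summed to 2618, 1819 and 1604 FPKM against 28.3, 54.3 and 34.7, a ratio of 51.5, and all 12 passed as higher, led by Acta2, at a mean of 557 against 8.25 FPKM. Enteric neuron and glia markers were 23.8 times higher, with 11 of 12 passing and 2 of them at 0 in all 3 WT libraries. Endothelial markers were 16.0 times and fibroblast markers 14.1 times higher, with all 10 of each passing. Macrophage (8.43 times, 9 of 10), neutrophil (7.94 times, 9 of 9 tested), T cell (3.01 times, 7 of 10) and B and plasma cell markers (2.20 times, 7 of 9 tested) were also higher. Germinal centre B cell markers, from another dividing cell type of the colon, summed to 52.7, 62.9 and 38.8 FPKM against 48.5, 31.2 and 49.5 and overlapped, with 4 of 6 tested higher. Goblet cell markers summed to 17124, 12555 and 17970 FPKM against 6217, 5810 and 4857, without overlap. Their ratio was 2.82, although single genes were mixed, with 3 lower and 5 higher of 10. Absorptive colonocyte markers summed to 6745, 2498 and 8248 FPKM against 7120, 8852 and 7707 and overlapped. Of these 10 genes 2 were lower and 3 higher, near the shares of all tested genes. The part of cell composition in the lower mitotic RNA was not tested beyond the scaling that follows.

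**Figure D5:**
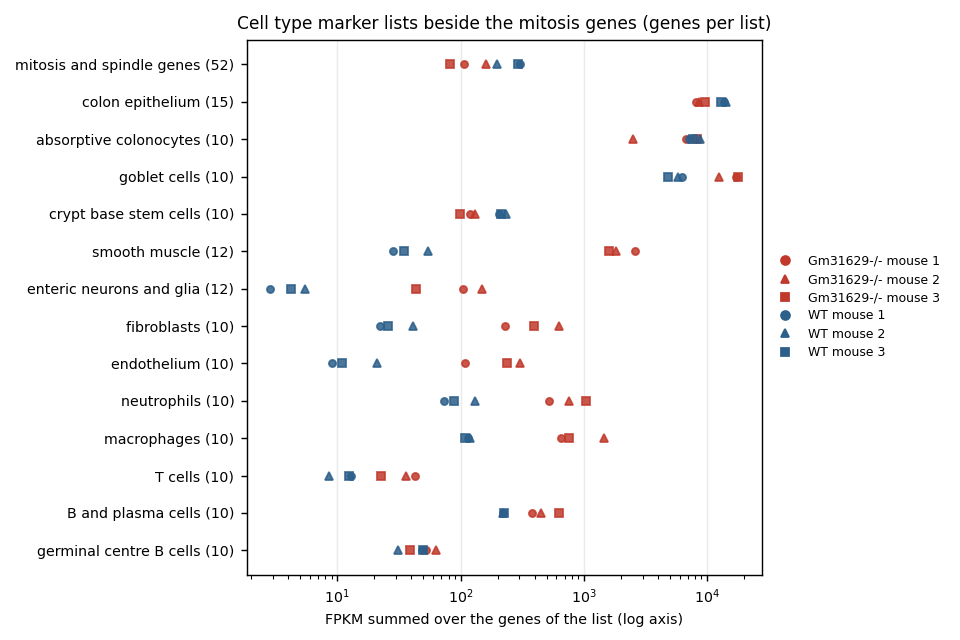
Summed FPKM of each cell type marker list in each mouse, on a log axis, beside the sum of the 52 mitotic genes. The smooth muscle, neuron, fibroblast, endothelium and goblet cell sums of the Gm31629-/- mice all lie above those of the WT mice. The epithelium, stem cell and mitotic sums all lie below.

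When each library was scaled to the geometric mean of its 15 epithelial markers, 15 of the 45 genes passed as lower, against 3.4% of all tested genes, and all 15 were among the 28. These were Ccna2, Ccnb1, Ccnb2, Cdc25c, Aurka, Nek2, Aurkb, Cdca8, Bub1b, Cdc20, Spc24, Kif20a, Racgap1, Ncapd2 and Ncaph. The median log2 fold change of the 45 was then -0.50 and that of all tested genes 0.62. Aurkb was at -1.48 (adjusted p = 0.0133, limma) and Cdc20 at -1.42 (adjusted p = 0.0334). Cdk1 (-0.77, adjusted p = 0.118), Plk1 (-0.32, adjusted p = 0.291), Birc5 (-0.69, adjusted p = 0.198) and Top2a (-0.83, adjusted p = 0.1) no longer passed. Pttg1 (0.89, adjusted p = 0.00536, limma) and Smc4 (1.12, adjusted p = 0.0328) passed as higher under this scaling, as did 51% of all tested genes. Relative to these 15 markers, 36 of the 45 log2 fold changes were negative, and the share negative over all tested genes is not given for this scaling. The markers did not move alike. In the main fit their log2 fold changes ran from -3.14 to 0.51, with 12 lower and 3 higher, so the scaling depends on the markers chosen.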

How the data were processed

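Distal colon RNA of 3 Gm31629-/- and 3 WT mice was sequenced, and the values the authors deposited are FPKM, with a column for each mouse and a row for each of 27546 genes. The submitters' processing notes name HISAT2 2.1.0, HTSeq 0.6.0 and GRCm38 without their roles, and whether counting used strand is not given in the sources used here. Symbols, exon lengths and GC content from GENCODE M21 matched 27488 genes. Fragments recovered from FPKM, length and depth were within 0.1 of a whole number for 96.3% to 97.3% of values up to 20 fragments. Linear models by genotype on log2(FPKM + 1) used limma 3.58.1 (R 4.3.3) with a trended prior variance, and Benjamini-Hochberg adjustment covered all genes with a mean of 0.5 FPKM or more, in place of the count-based DEGseq test of the methods, and the code was tested on simulated data. Summaries were made in Python 3.11.15. The genes, roles and lists were chosen with earlier results of these data known. Values per mouse are given, within each role, for genes past the test with the fold threshold, the most and least negative, and those under the filter, and the others were named after their values were seen. In other pathway lists the 3 largest changes in each direction are named, and in marker lists the most abundant gene. The GC trend was a loess fit with a span of 0.4. In all, 16 alternatives were tried.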

Additional observations from a re-analysis of the deposited data

How the results depend on the processing

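The direction held for most genes under the 16 alternatives, and the number that passed depended on the setting. Under epithelial scaling 15 mitotic genes passed as lower and 2 as higher (9 and 1 with the fold threshold), with a median log2 fold change of -0.50. The shares of all tested genes were 3.4% lower and 51% higher. Without the filter 19 of 52 tested genes passed as lower, against 6.72% of all tested genes. With a mean of at least 5 FPKM 9 of 11 did (7 with the fold threshold, median -1.47), where fewer genes were tested and 21.1% of them were lower. The median of the 45 was -1.47 with a pseudocount of 0.1 and -1.53 with voom on recovered fragments. In these fits 28 and 31 passed as lower, against 14.9% and 14.3% of all tested genes. With the fold threshold 27 and 30 passed. For the fold threshold, the share of all tested genes is not given in any of the alternatives here. The 3 added by voom were Nuf2 (-1.18, adjusted p = 0.046, limma), Hmmr (-1.73, adjusted p = 0.0458) and Anln (-1.45, adjusted p = 0.0408). Under the median ratio 33 passed as lower, against 24.8% of all tested genes. Leaving out 1 library gave 12 to 33 lower and 0 to 1 higher (11 to 25 and 0 to 1 with the fold threshold). The lowest counts came without WT mouse 3 and the highest without Gm31629-/- mouse 2.

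The replicate numbers did not pair the mice, with correlations of deviations of 0.04, -0.11 and 0.01 for numbers 1, 2 and 3. With the number as a replicate block, 18 of the 45 passed as lower, and among the other mitosis genes 13 were lower and 1 higher, with 1 lower in the list of the anaphase-promoting complex. Over all tested genes 10.3% were lower in that fit.

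Of the other mitosis genes, 7 were lower and 7 higher under epithelial scaling, 4 and 1 with a mean of at least 5 FPKM, and 18 and 1 without the filter. Their higher count was 1 under the median ratio and 1 after GC adjustment. Leaving out 1 library gave 10 to 30 lower and 1 to 5 higher. In the list of the anaphase-promoting complex, 4 were lower and 0 higher after GC adjustment, 0 and 9 under epithelial scaling, 0 higher with a mean of at least 5 FPKM, and 0 to 2 lower and 0 to 3 higher without 1 library. In cohesin, 1 was lower and 1 higher after GC adjustment, 1 higher with a mean of at least 5 FPKM, and 2 to 6 higher without 1 library. Over all tested genes, 3.4% were lower and 51% higher under epithelial scaling, and 30.1% and 20.1% after GC adjustment. The share lower was 6.72% without the filter, 21.1% with a mean of at least 5 FPKM and 6.69% to 13.5% without 1 library. The counts of these lists follow such shifts in part, and no test separated the 2.

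The median log2 fold changes of the roles were more negative with a pseudocount of 0.1 and with voom. The values were -1.95 and -2.09 for CDK1 and its cyclins, -2.04 and -2.10 for the kinases, -1.76 and -1.83 for the passenger complex, -0.74 and -0.88 for the kinetochore, -1.28 and -1.40 for the kinesins and -1.49 and -1.71 for cytokinesis. Voom gave -1.87 for the anaphase trigger and -1.53 for spindle assembly. GC adjustment gave -0.76 for the checkpoint, -0.77 for the kinetochore and -1.12 for cytokinesis. Epithelial scaling gave -1.04 for the kinases, -0.86 for the passenger complex, 0.047 for the checkpoint, -0.40 for the kinesins, -0.47 for spindle assembly and -0.52 for the condensin group.

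The sign turned in genes that did not pass. Under epithelial scaling it did so for Cdc25b (0.043), Bub1 (0.12), Bub3 (0.27), Cenpe (0.044) and Ndc80 (0.18), after GC adjustment for Spc25 (-0.20) and Smc2 (-0.43), and without 1 library for Bub1 (range -0.21 to 0.018, positive without WT mouse 1) and Ndc80 (range -0.31 to 0.16, positive without WT mouse 1 or Gm31629-/- mouse 3). The cause was not tested. Counting error limits the 7 genes below 0.5 FPKM, which had 4 to 167 fragments in a library.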
